A study of Mus musculus with 10 samples.

Results

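Fatty acid oxidation was followed through 30 genes, chosen by name, of the 42989 genes with a row in the deposited table. All 30 were measured and all 30 passed the filter on low values that left 17507 genes for testing. They comprised 5 genes of the carnitine shuttle, 8 of the mitochondrial β-oxidation spiral, 4 auxiliary enzymes for unsaturated fatty acids, 3 of the electron transfer flavoprotein chain, 4 of peroxisomal oxidation, 2 acyl-CoA thioesterases and 4 other targets of the nuclear receptor PPARα. No enzyme of ketone body synthesis is among them.

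RNA was measured in the distal ileum, the end of the small intestine where bile acids are taken up, of 10 male C57BL/6J wild-type mice made obese by diet (DIO). Gavage by mouth began at 10 weeks of age and went on for 4 weeks, with TDCA (taurodeoxycholic acid, a bile acid joined to taurine) given to 5 mice at 10 mg per kg of weight and an equal volume of water given to 5. Every mouse in both groups was therefore obese, and no lean or untreated mouse was used here. The libraries were made from total RNA after depletion of ribosomal RNA (Zymo-Seq RiboFree), with 1 library per mouse, numbered here as in the sample descriptions.

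Long-chain fatty acids enter mitochondria as carnitine esters and are then shortened stepwise by dehydrogenases, a hydratase, a second dehydrogenase and a thiolase, while electrons leave through the electron transfer flavoprotein. Peroxisomes shorten very long and branched chains by a related route. PPARα, a nuclear receptor that binds fatty acids, raises transcription of many of these genes in liver and intestine. In the small intestine the absorptive enterocytes take up dietary fat and oxidise part of it, and the muscle layer around the mucosa also uses mitochondrial oxidation.

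Libraries held 27349003 to 44342245 reads on genes, and 3 reads, the floor used for a gene with no read, corresponded to 2.57 to 3.60 normalized counts. The ileal bile acid genes Fabp6 and Slc10a2, checked as markers of the tissue, lay at 28629 to 105767 and 11827 to 34722 normalized counts over the 10 libraries. The libraries water 1 and TDCA 5 lay at the ends of the smooth muscle range, and TDCA 5 also stood apart in enterocyte markers. The 15 smooth muscle markers summed to 109124 normalized counts in water 1, the lowest library, with water 3 next at 148208. They summed to 432389 in TDCA 5, the highest library. The enterocyte markers summed to 297276 in TDCA 5 against 449456 to 563120 in the other 9 libraries. Mitochondrial ribosomal RNA took 30.2% of the reads in water 3 and 40.5 to 48.1% elsewhere. In bulk tissue, fewer cells of a type and less RNA per cell cannot be told apart.

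Most fatty acid oxidation genes had slightly lower mean levels in TDCA ilea, and none of the differences passed the test. The log2 fold change of TDCA against water was negative for 29 of the 30 genes, with a median of −0.19 and a range from −0.55 (Acaa1b, −0.29 in edgeR) to 0.05 (Acaa2). Over all 17507 genes tested the median was −0.01 and 52.1% were negative. Under quantile normalization 28 of 30 were negative, Cpt1a turning to 0.02, and with smooth muscle markers as a covariate 15 of 30 were negative.

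In limma-trend, run on log2(normalized count + 1) and adjusted by Benjamini-Hochberg over the whole table, 0 of the 30 genes were called at an adjusted p under 0.05. The background was 0% of all genes, the smallest adjusted p of any gene being 0.448. At an unadjusted p under 0.05, 4 of the 30 were lower, where 5.01% of all genes were, and 0 of the 30 were higher, where 5.95% were. These were 1919 genes in all. The edgeR quasi-likelihood test also called 0 genes (1755 unadjusted), and DESeq2 run on the recovered reads called 25, of which 0 were among the 30. The groups did not overlap for 1.40% of all genes and for 0 of the 30. The authors' deposited table called 0.181% of the 13800 genes with an adjusted p, and 0 of the 30, the smallest adjusted p among them being 0.270 for Hadh.

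The 4 genes with the smallest unadjusted p came from different steps of the pathway: Hadh from the spiral, Eci1 from the auxiliary enzymes, Cpt2 from the shuttle and Ucp2 from the other PPARα targets. The number of oxidation genes at an unadjusted p under 0.05 rested on single libraries. It was 11 without TDCA 3, and 1 without water 4, without TDCA 1 or without TDCA 5. No such gene was left without both water 1 and TDCA 5, nor in fits with a smooth muscle or an enterocyte score added.

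**Figure D1:**
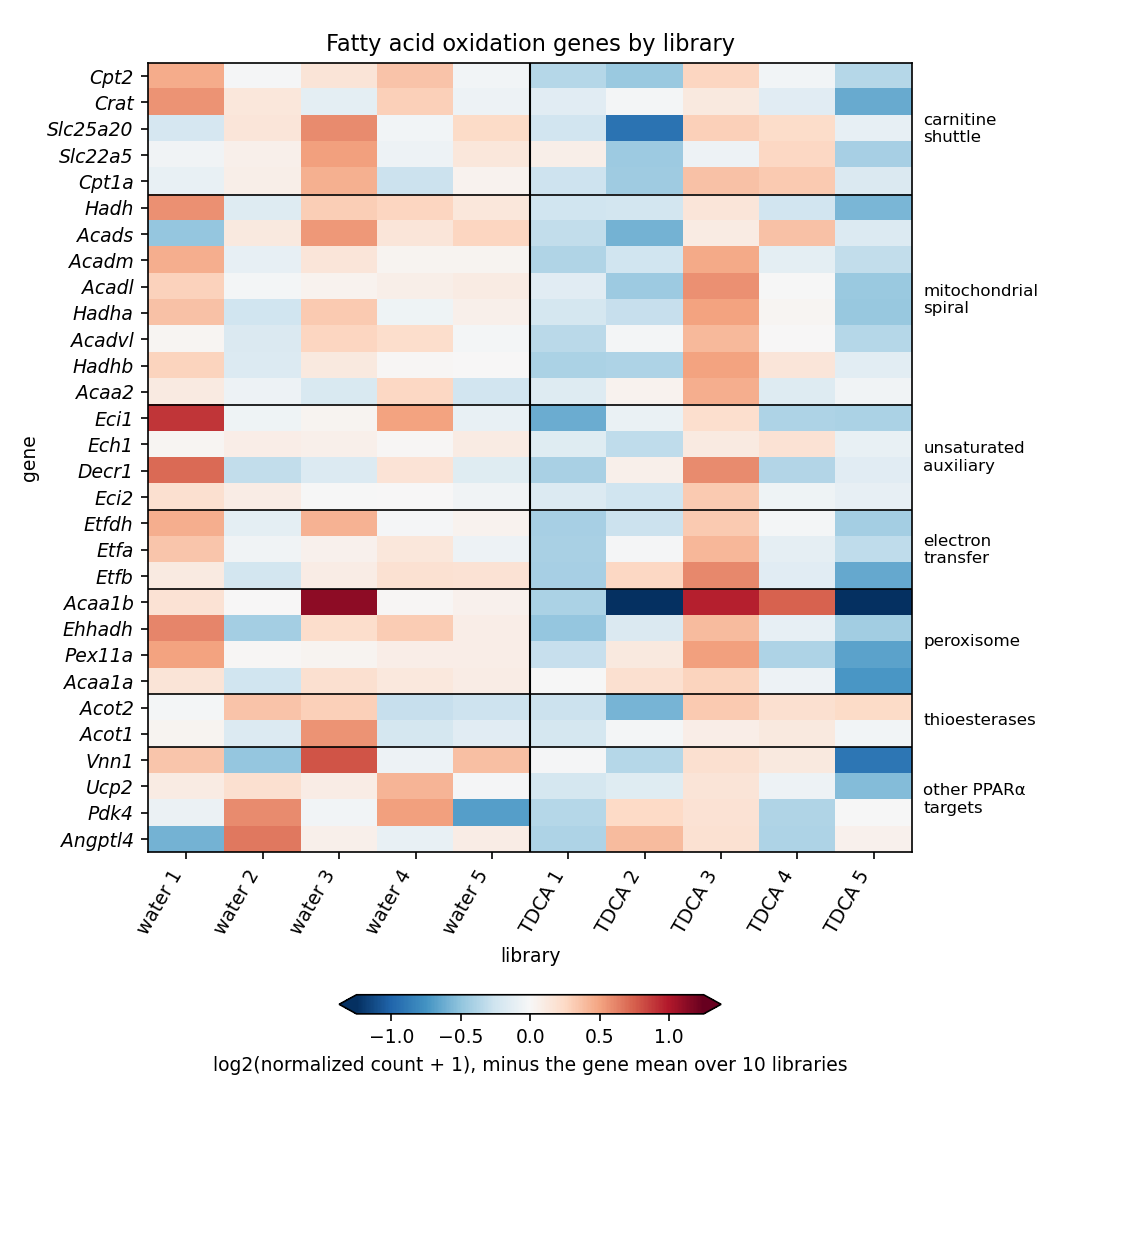
Each row is one of the 30 genes, ordered by role, and each column is a library; colour shows log2(normalized count + 1) minus the gene's mean over the 10 libraries, and values beyond the ends of the scale take the end colours. TDCA 3 holds the highest value of 11 genes and TDCA 5 the lowest of 12, so libraries differ within the TDCA group as well as between groups.

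A few libraries held the extremes of many of the genes. TDCA 3 held the highest level of 11 of the 30 genes, and water 1 and water 3 that of 7 each. The lowest level was in TDCA 5 for 12 genes, in TDCA 2 for 8 and in TDCA 1 for 6. The median over the genes of the log2 level, centred per gene over all libraries, was 0.19, −0.03, 0.16, 0.08 and 0.04 in water 1 to 5 and −0.28, −0.24, 0.33, −0.05 and −0.36 in TDCA 1 to 5. TDCA 3 lay above every water library on this measure, and the groups overlapped. The 30 genes together made up 0.369% ± 0.0298 of the non-mitochondrial normalized counts in water and 0.338% ± 0.0530 in TDCA libraries (SD over 5 mice), with ranges of 0.333 to 0.415% and 0.287 to 0.414%.

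Levels per transcript length showed which transcripts were abundant, and amounts of the enzymes were not measured. Over the 10 libraries the highest was Hadh, at 3906 normalized counts per kb of transcript, above 98.3% of all genes tested. Etfa (2150.1), Acadl (2000.2) and Acadm (1988) came next on the per-kb scale, followed closely by Vnn1 (1969.6) and Acaa1a (1969). The means of these 5 genes differed by less than the SD within groups of any of them on the log2 scale. At the low end lay Etfb (156), Acot2 (114) and Acot1 (28.7), the last above 27.3% of genes tested.

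**Figure D2:**
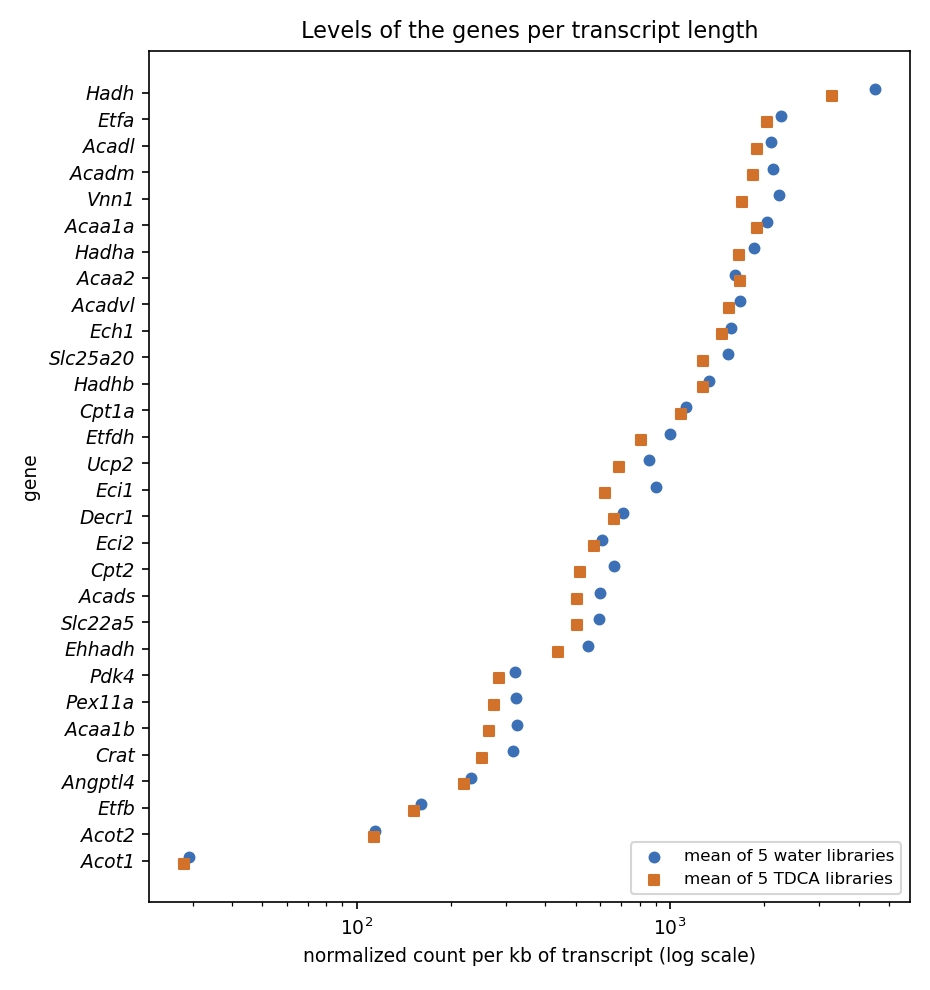
Mean normalized count per kb of transcript (log axis) for each of the 30 genes in the 5 water libraries (circles) and the 5 TDCA libraries (squares). Levels span from 28.7 per kb for Acot1 to 3906 per kb for Hadh, and among genes of like level the gap between circle and square can exceed the distance to the next gene.

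The promoters of these genes were searched because a shared regulator is described for many of them. RefSeq promoter sequences (build GRCm38.p6) were matched for 25 of the 30 genes, and the 250 bases before each start site were searched on both strands for 4 motifs. AGGTCA, the short element bound by many nuclear receptors, was found in 3 of 25 (Cpt1a, Acadm and Acadvl), against 14.0% of 32851 mouse promoters. A pair of AGGTCA copies in direct repeat with 1 base between them, the arrangement known for PPARα, was found with up to 2 mismatches in 1 of 25 (Etfa), against 3.24% of promoters. The longer TCAAGGTCA, which contains that element, was found in 0 of 25, against 0.387%. CCAAT, a general promoter element, was found in 12 of 25, which is 48.0%, against 33.8% of promoters. AGGTCA also lies within the direct repeat, so these searches are not independent. The windows around the AGGTCA matches of Cpt1a (plus strand, chr19:3323181-3323240) and Acadvl (minus strand, chr11:70015489-70015548) and around the direct repeat of Etfa (minus strand, chr9:55512278-55512350) are shown on the gene's strand, with the match in capitals. In Cpt1a and Etfa the match reads on the opposite strand.
Cpt1a: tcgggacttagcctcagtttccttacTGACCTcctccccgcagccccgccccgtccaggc
Acadvl: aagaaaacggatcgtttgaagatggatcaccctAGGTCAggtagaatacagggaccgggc
Etfa: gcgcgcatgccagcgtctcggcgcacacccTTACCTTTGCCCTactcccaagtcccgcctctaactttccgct

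The carnitine shuttle, which carries fatty acids to the mitochondrial matrix, had a negative log2 fold change in 5 of 5 genes (median −0.30), and 0 were called. Cpt2 (ENSMUSG00000028607), the inner-membrane enzyme that turns acylcarnitine back into acyl-CoA, had normalized counts of 1879.9, 1352, 1528, 1751 and 1336 in water 1 to 5 and 1068, 991, 1651, 1334 and 1069.9 in TDCA 1 to 5. TDCA 1, 2, 4 and 5 lay below every water library, and the groups overlapped through TDCA 3. The log2 fold change was −0.37 (SE 0.15, 95% interval −0.71 to −0.04, limma adjusted p = 0.448), and −0.36 in the authors' deposited table. The exact permutation test gave p = 0.0556, two-sided and unadjusted.

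Cpt1a, the outer-membrane enzyme that malonyl-CoA inhibits and the regulated entry step, had normalized counts of 4371, 4904, 6359, 3884 and 4812 in water 1 to 5 and 3896, 3435, 6037, 5857 and 4111 in TDCA 1 to 5. The highest values of both groups, in water 3, TDCA 3 and TDCA 4, lay side by side and the groups overlapped widely. Its log2 fold change was −0.08 (SE 0.18, 95% interval −0.48 to 0.32, limma adjusted p = 0.891), a sign that turned with 1 library left out (range −0.18 to 0.02).

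The other shuttle genes gave intermediate values. Crat, which makes short-chain acylcarnitines, averaged 1336 ± 265 in water and 1064 ± 192 in TDCA libraries, with all 5 TDCA values below the water median (log2 fold change −0.33, SE 0.16, two-sided unadjusted exact permutation p = 0.0952). The acylcarnitine carrier Slc25a20 ranged from 1277 in TDCA 2 to 3643 in water 3 (log2 fold change −0.30, SE 0.22). The carnitine uptake transporter Slc22a5 ranged from 1207 in TDCA 2 to 2358 in water 3 (−0.24, SE 0.16).

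Within the mitochondrial spiral, Hadh had the smallest p of the 30 genes and the other 7 genes had log2 fold changes from −0.24 to 0.05. Hadh (ENSMUSG00000027984), the hydroxyacyl-CoA dehydrogenase for short and medium chains, had normalized counts of 10148, 6073, 8446, 8223 and 7523 in water 1 to 5 and 5724, 5807, 7575, 5788 and 4569 in TDCA 1 to 5. Of the TDCA libraries 4 lay below all water libraries, while TDCA 3 lay above water 2 and water 5, so the groups overlapped. The means were 8083 ± 1480.4 in water and 5892 ± 1076 in TDCA libraries (SD over 5 mice). A log2 fold change of −0.45 was found (SE 0.16, 95% interval −0.81 to −0.10, limma adjusted p = 0.448), and the exact permutation test of this single value gave p = 0.0238, two-sided and unadjusted.

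Hadha and Hadhb encode the α and β subunits of the trifunctional protein, which carries out the last steps on long chains, and their genes lie head to head on chromosome 5. The annotated starts are 272 bases apart, so all of the 250 bases before the start of Hadhb (plus strand, chr5:30155003-30155252, GRCm38.p6, RefSeq) lie between the pair. The stretch is shown because both genes are read away from it, and it has no capitals because none of the 4 motifs was found in it.
Hadhb: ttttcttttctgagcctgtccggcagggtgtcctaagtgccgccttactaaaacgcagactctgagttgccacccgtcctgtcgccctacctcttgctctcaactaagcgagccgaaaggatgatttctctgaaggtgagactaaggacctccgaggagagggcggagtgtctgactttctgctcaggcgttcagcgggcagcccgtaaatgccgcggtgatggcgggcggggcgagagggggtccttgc

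Hadha had normalized counts of 8940.5, 5814, 8684, 6641 and 7206 in water 1 to 5 and 5948, 5670.0, 9784, 7031 and 4987 in TDCA 1 to 5, and Hadhb had 3183, 2329.8, 2856, 2643 and 2619 in water 1 to 5 and 1996, 2002, 3704, 2914 and 2397 in TDCA 1 to 5. For both genes TDCA 3 was the highest of all 10 libraries and the groups overlapped. The log2 fold changes were −0.18, SE 0.19, adjusted p = 0.733 for Hadha and −0.10, SE 0.17, adjusted p = 0.842 for Hadhb in limma. The log2 ratio of Hadha to Hadhb averaged 1.44 ± 0.12 (SD) in water and 1.36 ± 0.20 in TDCA libraries, a difference within the spread (two-sided exact permutation p = 0.492, adjusted p = 0.984 over 4 such ratios). It ran from 1.06 in TDCA 5 to 1.60 in water 3.

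The 4 acyl-CoA dehydrogenases, which take the first step for very long, long, medium and short chains, each had 4 of 5 TDCA values below the water median. Acadm averaged 4362 ± 674 in water and 3776 ± 1017 in TDCA libraries (log2 fold change −0.23, SE 0.17), and Acadl 4029 ± 342 in water and 3636 ± 1171 in TDCA (−0.20, SE 0.18). Acadvl averaged 3615 ± 458 in water and 3353 ± 756 in TDCA (−0.13, SE 0.15), and Acads 1117 ± 267 in water and 946 ± 243 in TDCA (−0.24, SE 0.20). None of these differences passed the test, and the TDCA group of Acadl spread from 2722 to 5579, wider than the water group on both sides.

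Acaa2, the mitochondrial thiolase that closes the cycle, was the gene with a positive fold change. Its normalized counts were 2665, 2360.1, 2168, 2942 and 2084 in water 1 to 5 and 2199, 2542, 3384, 2206 and 2391 in TDCA 1 to 5. TDCA 3 was the highest, the other TDCA libraries lay within the water range, and the log2 fold change was 0.05 (95% interval −0.26 to 0.36, limma adjusted p = 0.908). It turned to −0.06 without TDCA 3.

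**Figure D3:**
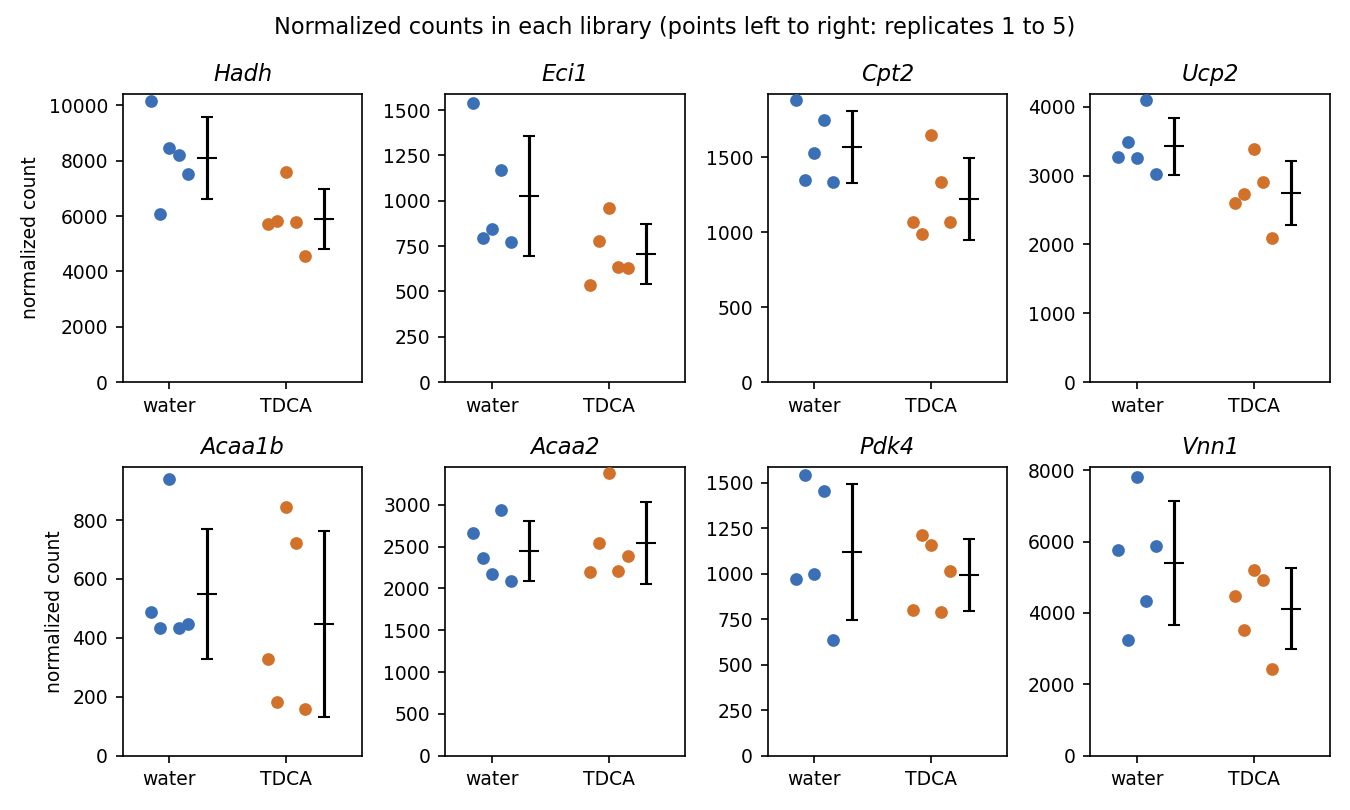
Normalized counts (linear axes from 0) of 8 genes in each library, replicates 1 to 5 from left to right, with mean and SD of each group at the side. In Hadh, Eci1, Cpt2 and Ucp2 the TDCA points lie mostly low with TDCA 3 the highest of its group, and in all 8 panels the groups overlap.

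Auxiliary enzymes that prepare double bonds for the spiral had negative fold changes in 4 of 4 genes (median −0.11), and 0 were called. Eci1 (ENSMUSG00000024132), the mitochondrial enoyl-CoA isomerase, had normalized counts of 1541, 795, 846, 1170.0 and 775 in water 1 to 5 and 536, 779, 958, 633 and 628 in TDCA 1 to 5. Water 1 and water 4 lay above all other libraries, while the other 3 water values lay among those of TDCA. This gave a log2 fold change of −0.51 (SE 0.21, 95% interval −0.97 to −0.06, limma adjusted p = 0.448). The exact permutation test gave p = 0.0635, two-sided and unadjusted. Decr1, the dienoyl-CoA reductase, was likewise highest in water 1 (3202) and next in TDCA 3 (2963), with a log2 fold change of −0.10, SE 0.22. Ech1, a dienoyl-CoA isomerase, varied least of the 30 genes, by 1.41-fold from lowest to highest library (1989 ± 50.3 in water and 1857 ± 261 in TDCA, log2 fold change −0.11, SE 0.11). Eci2, a second isomerase, was close behind at 1062 ± 72.8 in water and 999 ± 166 in TDCA libraries (−0.10, SE 0.11).

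Electrons from the dehydrogenases pass through the heterodimer of Etfa and Etfb to Etfdh, which reduces ubiquinone. Etfdh averaged 2372 ± 439 in water and 1917 ± 451 in TDCA libraries (log2 fold change −0.32, SE 0.17, adjusted p = 0.497 in limma), with the 2 lowest values in TDCA 5 and TDCA 1. Etfa averaged 3152 ± 379 in water and 2834 ± 673 in TDCA (−0.18, SE 0.15), and Etfb 143 ± 16.1 in water and 136 ± 48.4 in TDCA (−0.14, SE 0.22). The subunits pair in equal number in the protein, and Etfa counts stood 13.9-fold above Etfb counts per kb of transcript. The counter and its annotation are not stated and the lengths come from another build. How far this gap reflects amounts of RNA was not tested. The log2 ratio of Etfa to Etfb counts averaged 4.46 ± 0.20 (SD) in water and 4.42 ± 0.23 in TDCA libraries, within the spread (two-sided exact permutation p = 0.762, adjusted p = 1.0 over 4 ratios).

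Peroxisomal genes had negative fold changes in 4 of 4 (median −0.30), with wide spreads. Acaa1a and Acaa1b, a pair of peroxisomal thiolase genes, have transcripts that are 96.4% identical over 1465 aligned bases, with an identical run of 327 bases. The counting of reads shared by such copies is not described in the sources used here, which leaves the values of either gene uncertain. The 130 bases before their starts are shown because the transcripts are near copies, Acaa1a on the plus strand (chr9:119341164-119341293) and Acaa1b on the minus strand (chr9:119157094-119157223), both GRCm38.p6 from RefSeq, with CCAAT boxes in capitals in their reverse form.
Acaa1a: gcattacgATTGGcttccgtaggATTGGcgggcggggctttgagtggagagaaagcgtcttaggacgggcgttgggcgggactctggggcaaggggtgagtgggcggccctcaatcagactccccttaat
Acaa1b: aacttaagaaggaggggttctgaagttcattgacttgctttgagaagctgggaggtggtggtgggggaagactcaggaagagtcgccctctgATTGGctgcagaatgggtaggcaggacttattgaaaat

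Acaa1b varied most of the 30 genes, by 5.89-fold between libraries. Its normalized counts were 489, 433, 939.9, 435 and 448 in water 1 to 5 and 329, 182, 846, 721 and 159.7 in TDCA 1 to 5. High values stood in water 3, TDCA 3 and TDCA 4 and low ones in TDCA 2 and TDCA 5, so both extremes of the TDCA group lay far apart. The log2 fold change was −0.55 with an SE of 0.48 (95% interval −1.61 to 0.52, limma adjusted p = 0.680). It was −0.29 in edgeR and −0.30 in the authors' deposited table, and it ran from −0.86 to −0.26 with 1 library left out. Acaa1a was steadier, at 3808, 2861, 3904, 3737 and 3638 in water 1 to 5 and 3396, 3906, 4128, 3256 and 2053 in TDCA 1 to 5 normalized counts, with TDCA 5 the lowest, water 2 next and the groups overlapping (log2 fold change −0.13, SE 0.18). Acaa1b counts were 4.65 to 24.1% of Acaa1a counts, and the log2 ratio averaged −2.77 ± 0.43 (SD) in water and −3.19 ± 0.95 in TDCA libraries (two-sided exact permutation p = 0.413, adjusted p = 0.984 over 4 ratios).

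Ehhadh, the bifunctional hydratase and dehydrogenase of peroxisomes, averaged 1637 ± 405 in water and 1308 ± 345 in TDCA libraries (log2 fold change −0.32, SE 0.20), with water 1 the highest and TDCA 1 the lowest. Pex11a, which promotes division of peroxisomes, averaged 721 ± 111 in water and 613 ± 205 in TDCA (−0.28, SE 0.20), with water 1 and TDCA 3 the highest and TDCA 5 the lowest.

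The thioesterases Acot1 (cytosolic) and Acot2 (mitochondrial), which release free fatty acids from acyl-CoA, had fold changes near 0. Their transcripts are 94.3% identical over 1330 aligned bases, so single values are uncertain here too. Acot1 had normalized counts of 66.1, 57.2, 95.6, 55.0 and 58.2 in water 1 to 5 and 55.1, 63.3, 68.1, 70.3 and 63.0 in TDCA 1 to 5, and only water 3 stood above the rest. Acot2 had 240.2, 314, 302, 201 and 204 in water 1 to 5 and 203, 163, 307, 282 and 288 in TDCA 1 to 5, with high and low libraries in both groups. The log2 fold changes were −0.03 for Acot1 (SE 0.19) and −0.03 for Acot2 (SE 0.20), and both turned in sign with 1 library left out. The log2 ratio of Acot1 to Acot2 averaged −1.93 ± 0.31 (SD) in water and −1.92 ± 0.34 in TDCA libraries (two-sided exact permutation p = 1.0).

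Of the other PPARα targets, Ucp2 (ENSMUSG00000033685), a carrier of the inner mitochondrial membrane, had normalized counts of 3272, 3485, 3249, 4091 and 3016 in water 1 to 5 and 2608, 2737, 3386, 2902 and 2093 in TDCA 1 to 5. In TDCA 1, 2, 4 and 5 it lay below every water library, and TDCA 3 lay within the water range. This gave a log2 fold change of −0.33 (SE 0.14, 95% interval −0.62 to −0.03, limma adjusted p = 0.448). The exact permutation test gave p = 0.0397, two-sided and unadjusted. For Hadh, Eci1, Cpt2 and Ucp2 the permutation tests used the same values that ranked these genes, so they add no separate support.

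Vnn1, a pantetheinase that acts in coenzyme A turnover, had normalized counts of 5751, 3236, 7819.7, 4337 and 5873 in water 1 to 5 and 4483, 3533, 5194, 4933 and 2424 in TDCA 1 to 5. All 5 TDCA values lay below the water median and the groups overlapped through the low water 2 and water 4 (log2 fold change −0.38, SE 0.26, adjusted p = 0.586 in limma). Pdk4, the kinase that holds pyruvate dehydrogenase inactive when fat is burned, had 972, 1542, 997, 1456 and 634 in water 1 to 5 and 799.9, 1214, 1156, 788 and 1016 in TDCA 1 to 5. Its lowest and its highest value were both in water libraries, so the TDCA group lay inside the water group (−0.12, SE 0.23, 95% interval −0.62 to 0.38). Angptl4, a secreted inhibitor of lipoprotein lipase, had 482, 1140.2, 756, 678 and 772 in water 1 to 5 and 555, 955, 827, 553 and 752 in TDCA 1 to 5, and here too the TDCA group lay inside the water range (−0.05, SE 0.22, 95% interval −0.53 to 0.43).

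Among 16 regulators of fatty acid oxidation, 11 had a negative and 5 a positive log2 fold change (median −0.07), and 0 were called. Ppara averaged 1264 ± 407 in water and 916 ± 241 in TDCA libraries (log2 fold change −0.44, SE 0.22, adjusted p = 0.476 in limma), with water 1 the highest. Its coactivator gene Ppargc1a averaged 1688 ± 422 in water and 1776 ± 276 in TDCA (0.09, SE 0.16). Prkaa2, a catalytic subunit of the energy sensor AMPK, averaged 3066 ± 384 in water and 4308 ± 727 in TDCA (0.48, SE 0.14, adjusted p = 0.448 in limma). Every TDCA library lay above every water library for Prkaa2, where 1.40% of all genes tested had groups without overlap in either direction. Mlycd, which degrades malonyl-CoA, averaged 457 ± 43.2 in water and 376 ± 43.5 in TDCA (−0.28, SE 0.11).

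Other lists around the pathway held no called gene either. Of 8 fatty acid activation genes 4 had a negative and 4 a positive log2 fold change (median 0.04), the smallest p belonging to the acyl-CoA synthetase genes Acsl4 (0.40, SE 0.16) and Acsl6 (0.58, SE 0.26). Of the 6 tested among 7 further carnitine genes 5 were negative (median −0.33), with Crot, a peroxisomal acyltransferase, at −0.32, SE 0.14 and Aldh9a1, of carnitine synthesis, at −0.33, SE 0.20. Of 14 further mitochondrial oxidation enzymes 11 were negative (median −0.16), with the thioesterase gene Acot13 at −0.44, SE 0.18 and the hydratase gene Echs1 at −0.25, SE 0.11. These medians describe the libraries, and no list was tested as a set.

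Further peroxisomal genes were negative in 15 of the 17 tested of 18 (median −0.18). Eci3 (−0.56, SE 0.18) and the reductase gene Pecr (−0.50, SE 0.17) had the smallest p. Decr2, a dienoyl-CoA reductase named after its values were seen, was the 1 gene of the list whose groups did not overlap (669.5 ± 23.3 in water and 534 ± 91.0 in TDCA). Groups did not overlap for 1.40% of all genes tested. Of the 13 tested among 16 further PPARα targets 7 were negative and 6 positive (median −0.09), with the fatty acid binding protein gene Fabp2 at −0.70, SE 0.37 and the lipase inhibitor gene G0s2 at 0.41, SE 0.25. In the citrate cycle, which burns the acetyl-CoA made by oxidation, 14 of 15 were negative (median −0.17), with Sdhb at −0.32, SE 0.12 and Idh3b at −0.23, SE 0.12.

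Markers of cell types also differed between libraries. All 15 smooth muscle markers had a positive log2 fold change (median 0.69), the smallest p belonging to Synpo2 (0.77, SE 0.27) and Lmod1 (0.80, SE 0.29), and 0 were called in limma. Their summed level ranged from 109124 to 319175 normalized counts in water and from 237165 to 432389 in TDCA libraries, with no marker at 0 in any library. Of the 14 enterocyte markers tested 12 were negative (median −0.25), with Alpi at −0.53, SE 0.20 and Fabp6 at −0.55, SE 0.27, and the sums ranged from 496209 to 563120 in water and from 297276 to 541379 in TDCA libraries. Of the 10 adipocyte markers 9 were negative (median −0.50), with Lipe at −0.36, SE 0.17 and Aqp7 at −0.43, SE 0.21. The adipocyte sums ranged from 6662 to 17139.8 in water and from 6074 to 18550.5 in TDCA libraries, the highest being in TDCA 3 and the next in water 1. Adipoq, the defining marker of fat cells, lay at 80.6 (TDCA 2) to 1063 (TDCA 3) normalized counts, with water 2 at 831 and water 1 at 613. Pck1, Lipe and Aqp7 of this list are also made by enterocytes. Pck1 alone held 8974 normalized counts in water 1, so the sums do not rank the libraries by fat cells. The part of these markers in the oxidation genes' values was not tested apart from the fits that follow.

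**Figure D4:**
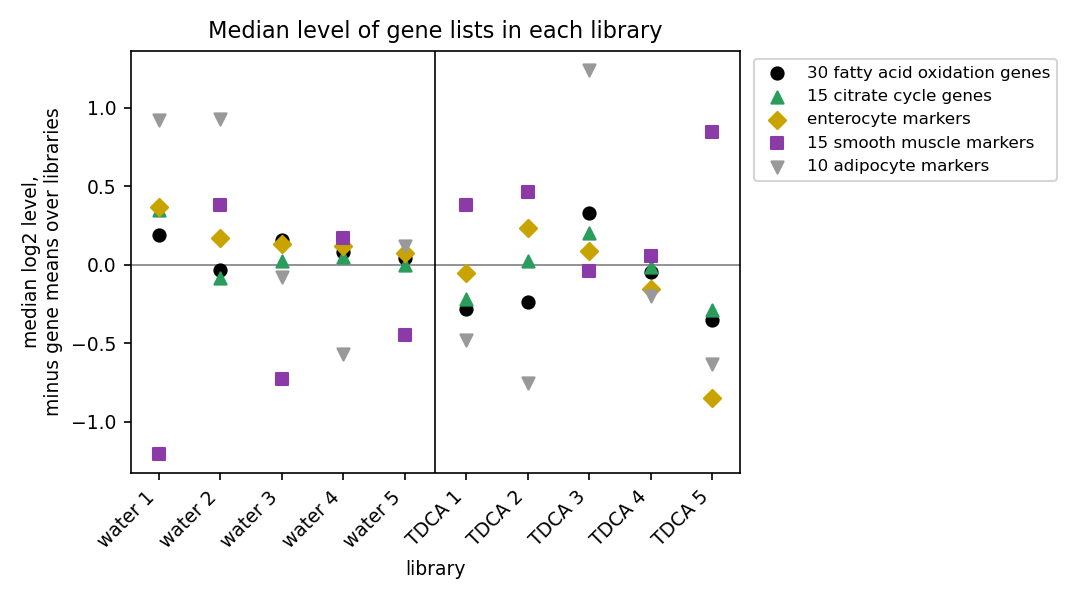
For each library, the median over each gene list of the log2 level centred per gene over the 10 libraries, with the 30 fatty acid oxidation genes in black circles. Smooth muscle markers are lowest in water 1 (−1.20) and highest in TDCA 5 (0.85), and the oxidation genes are lowest in TDCA 5 (−0.36) and highest in TDCA 3 (0.33).

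With the mean level of the smooth muscle markers as a covariate in the same fit, the median log2 fold change of the oxidation genes was 0.00, with 15 negative and 15 positive. Of the 4 genes with the smallest p, Ucp2 stood at −0.30 (95% interval −0.67 to 0.06), Eci1 at −0.27, Cpt2 at −0.18 and Hadh at −0.17 in that fit. Not all genes moved toward 0. The most negative in that fit were Pdk4 at −0.42 (95% interval −0.98 to 0.15) and Angptl4 at −0.37 (−0.87 to 0.13). Without the covariate they stood at −0.12 and −0.05. With the enterocyte markers as the covariate the median was −0.11, with 26 negative and 4 positive. Without both water 1 and TDCA 5 it was also −0.11, again with 26 negative. Water 1 held the highest median level of the oxidation genes in its group (0.19) and TDCA 5 the lowest in its own (−0.36). Leaving both out therefore brings the groups closer whatever the tissue makeup, and is no separate check of it. The covariate differs between the groups itself, so the share of a difference that goes with treatment and the share that goes with tissue makeup cannot be told apart. The enterocyte score also includes the ileal bile acid genes Fabp6 and Slc10a2, and whether TDCA acts on these directly was not tested.

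**Figure D5:**
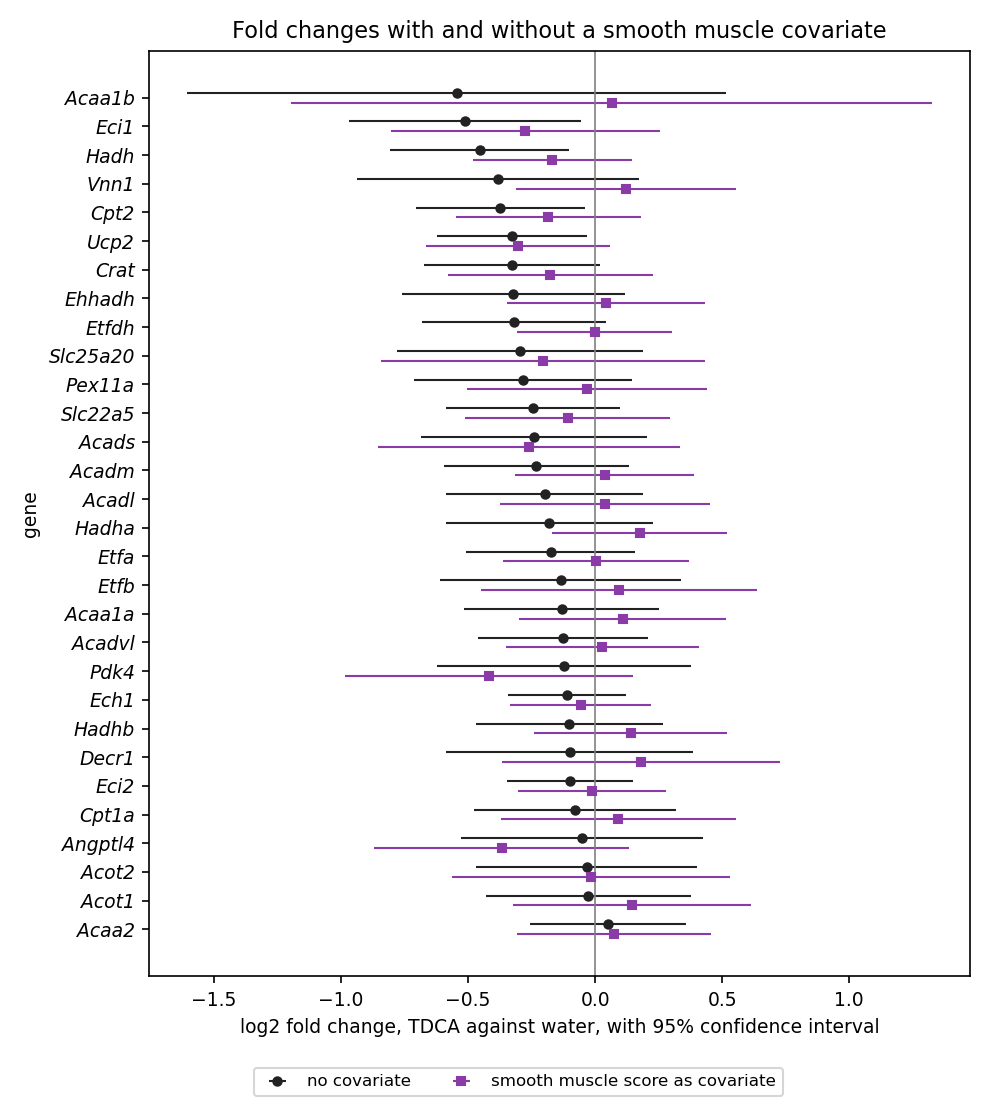
Log2 fold change of TDCA against water with its 95% confidence interval for each of the 30 genes, without a covariate (circles) and after adding the smooth muscle score to the fit (squares). Without a covariate 29 of 30 points lie below 0 (28 under quantile normalization) and 4 intervals leave out 0; with it 15 lie below and 15 above, and every interval holds 0.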

How the data were processed

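Total RNA from the distal ileum of 10 mice was sequenced, with 5 libraries per group that the series text calls biological replicates. The submitters' processing notes name MultiQC 1.9, DESeq2 1.28.0 and the build GRCm39. An aligner, a counter, its treatment of strand and of reads shared by gene copies, and an annotation are not stated in the sources used here. Deposited by the authors were normalized counts per gene, a signal that the authors made by dividing read counts by a size factor per library, as the file headers and values show. All values (100%) were whole multiples of what 1 read is worth (tolerance 1e-04 reads), which gave back the reads. The authors' deposited comparison table holds, per the file headers, a mean signal, log2 fold changes, a test score (the Wald statistic) and p-values. Its Treatment and Control columns were not used.

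The 30 genes and 14 further gene lists were chosen with earlier results of these data known. Groups came from the labels. The filter kept 17507 of 42989 genes, those reaching 10 normalized counts in 5 or more libraries. They were tested two-sided on log2(normalized count + 1) by limma-trend (limma 3.58.1 in R 4.3.3) with robust moderation and Benjamini-Hochberg adjustment. Fold changes on that scale understate those of low genes. Single values were compared by exact permutation over 252 labelings, whose smallest p is 0.00794. Alternatives were pseudocounts of 0.5 and 8, no filter, a filter of 50, TMM, quantile normalization, edgeR 4.0.16 and DESeq2 1.42.0 on recovered reads, a replicate block, marker covariates and libraries left out. The limma fit was tested on simulated data first. Floors of 3 reads cover counting error only.

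Values in every library are given for the 4 genes with the smallest limma p in each direction (1 gene was positive), for 11 genes fixed by name and for any whose groups did not overlap. From each other list the 2 genes with the smallest p, and Ppara and Ppargc1a, are named with group means or fold changes. Transcript lengths came from GENCODE M21, found for all 30 genes and 99.4% of tested genes. That annotation and the RefSeq promoters are of GRCm38, not of the files' build, and they were matched by gene identifier or symbol alone. Promoter coordinates are those of RefSeq's GRCm38.p6. Near-identical transcripts were compared by local alignment (Biopython 1.88). A few genes that the rule would name, and the ketone body list, are not reported here.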

Additional observations from a re-analysis of the deposited data

Results flagged for a closer look

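In groups of 5 libraries, a highest or lowest value was marked when its gap to the nearest other value, divided by the range of the group, both on the log2(normalized count + 1) scale, was above Dixon's 95% critical value of 0.71. Of 60 groups (30 genes in 2 groups) 4 were marked, and chance marks about 1 in 20. Acaa1a was lowest in water 2, at 2861 normalized counts, and Etfb was lowest in the same library, at 115 normalized counts. Acaa1b was highest in water 3, at 939.9 normalized counts, and Pex11a was highest in water 1, at 918 normalized counts. The pattern depends on the scale: on untransformed normalized counts 8 groups were marked, 5 in water and 3 in TDCA. The additional ones were Acot1 in water 3 (95.6), and Acadm (5554), Acaa2 (3384) and Eci2 (1285) in TDCA 3, each the highest of its group.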

How the results depend on the processing

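No setting with limma or edgeR called a gene at an adjusted p under 0.05, while DESeq2 on recovered reads called 25 genes, 0 of them among the 30. The median of the 30 log2 fold changes ran from −0.30 to −0.13 and the number negative from 26 to 30 with 1 library left out. The count of all genes at an unadjusted p under 0.05 (1919) ran from 1130 to 2538 with 1 library left out. It was 1251 without water 1, 1130 without TDCA 5, 913 without both, 672 with the smooth muscle covariate and 1141 with the enterocyte covariate. Replicate numbers 1 to 5 did not pair the samples (correlations of deviations −0.15 to 0.17, with 1 of 5 numbers matching best with itself). The sample titles carry other numbers, and pairing by those was not tested. The fit with a replicate block called 0 genes, had 1582 at an unadjusted p under 0.05, kept the median at −0.19 and left 3 of the 30 genes at an unadjusted p under 0.05.

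Signs turned as follows, and the cause was not tested. With the smooth muscle covariate 15 of 30 were negative, and log2 fold changes were 0.0918 for Cpt1a, 0.0375 for Acadm, 0.0403 for Acadl, 0.0282 for Acadvl, 0.17 for Hadha, 0.14 for Hadhb, 0.0418 for Ehhadh, 0.15 for Acot1, 0.11 for Acaa1a, 0.0662 for Acaa1b, 0.12 for Vnn1, 0.18 for Decr1, 0.0039 for Etfa, 0.0935 for Etfb, 0.11 for Agr2, −0.75 for Blk and −0.72 for Cr2. With the enterocyte covariate they were 0.10 for Acaa1a, 0.0221 for Decr1, 0.10 for Etfb and −0.15 for Cr2. Without both water 1 and TDCA 5 they were 0.0578 for Acaa1a, 0.0877 for Decr1, 0.0171 for Etfb, −0.46 for Blk and −0.32 for Cr2. Blk and Cr2 were −0.47 and −0.10 in edgeR and −0.44 and −0.10 in DESeq2, and quantile normalization gave 0.0189 for Cpt1a. With 1 library left out, values ran from −0.26 to 0.0641 for Decr1, −0.31 to 0.0098 for Pdk4, −0.20 to 0.11 for Angptl4, −0.12 to 0.11 for Acot2, −0.18 to 0.0237 for Cpt1a, −0.086 to 0.11 for Acot1, −0.0567 to 0.12 for Acaa2, −0.22 to 0.0344 for Acaa1a, −0.30 to 0.0069 for Etfb and −0.14 to 1.42 for Blk. Hadh, Eci1, Cpt2 and Ucp2 kept a negative sign under every setting run. So did Slc25a20, Acads, Crat, Slc22a5, Ech1, Etfdh, Eci2 and Pex11a, so a steady sign does not set the genes with the smallest p apart. The lowest value of the 30 genes (55.0 normalized counts, Acot1 in water 4) lay above the floor of 3 reads. How much counting error adds to the spread of the low genes was not tested.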

Other observations

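Further cell type lists and one more oxidation route were measured beside the 30 genes. Paneth cells, the antimicrobial cells of the crypt base, had a negative log2 fold change in 8 of 8 markers (median −0.81). This list was chosen with earlier results of these data known, so the count is no separate support. Smallest were the changes of Lyz1 (−0.25, SE 0.22) and Pla2g2a (−0.25, SE 0.34). Defa24, an α-defensin gene, averaged 5998 ± 1163 in water and 2981 ± 669 in TDCA libraries and Ang4, a ribonuclease gene, 367 ± 41.3 in water and 187 ± 54.0 in TDCA normalized counts. In limma both missed the threshold (adjusted p = 0.448), and both are among the 25 genes called in the authors' deposited table. Of 8 goblet cell markers 5 were negative and 3 positive (median −0.08), with Tff3 at −0.24, SE 0.18 and Agr2 at −0.23, SE 0.18. Of 9 B cell markers 8 were positive and 1 negative (median 0.24), with Blk at 0.61, SE 1.03 and Cr2 at 0.60, SE 1.22, both of which were negative in edgeR and DESeq2, and the B cell sums ran from 144 in TDCA 3 to 4804 in water 5.

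Microsomal ω-oxidation, in which cytochrome P450 enzymes of the Cyp4 family oxidise the far end of a fatty acid, had 3 of 8 genes that passed the filter, with a median log2 fold change of −0.48. One of them, Cyp4a10, was low and uneven, and its direction depended on the scale. Its log2 fold change was −0.74, SE 1.14 in limma and 0.46 in the authors' deposited table, with TDCA 5 listed at 0 and TDCA 3 at 112 normalized counts. Cyp4f16 averaged 5896 ± 1468 in water and 4221 ± 889 in TDCA libraries (−0.48, SE 0.19, adjusted p = 0.448 in limma), with all 5 TDCA values below the water median. Cyp4f14 averaged 24143 ± 3719 in water and 18769.5 ± 4265 in TDCA (−0.38, SE 0.19).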
